A study of Mus musculus with 24 samples.

Results

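The 10 genes described here were 7 ligands of the tumour necrosis factor (TNF) superfamily (Tnf, Lta, Ltb, Fasl, Tnfsf8, Tnfsf11 and Tnfsf14) and 3 cytokines that helper T cells secrete early after activation (Csf2, Il3 and Lif). They were looked up by name among the 22009 named genes of an RNA-sequencing table of mouse CD4+ T cells, and all 10 were in it. The list itself was drawn up with earlier results of these data known. The cells were purified by negative magnetic selection from pooled spleens of adult wild-type C57BL/6 mice, and expression was measured in 24 libraries. Of these, 2 libraries came from resting cells and 18 from cultures stimulated with plate-bound anti-CD3 at 5 µg/ml and anti-CD28 at 1 µg/ml, with 1 library for each of 3 conditions at 4, 8, 12, 16, 20 and 24 h. Th0 cultures received only these antibodies, Th1 cultures also received anti-IL-4 at 5 µg/ml and IL-12 at 10 ng/ml, and Th2 cultures received IL-4 at 20 ng/ml together with anti-IL-12 and anti-IFN-γ, each at 5 µg/ml. In the remaining 4 libraries, 16 h of stimulation preceded 0, 1, 2 or 4 h of treatment with actinomycin, a blocker of transcription, and the labels do not give the skewing condition of these cells. Each culture was sequenced once, so a p-value over these cultures measures the spread between conditions or time points and not between repeat experiments. The titles of the resting and of the cultured libraries carry different number tags, the meaning of which the labels do not give, so whatever the tags mark cannot be told apart from activation.

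TNF superfamily ligands are made as trimeric membrane proteins, and several are released by proteases. TNF binds TNFR1 and TNFR2 and switches on NF-κB, lymphotoxin-α is secreted as a trimer of its own or anchored to the membrane by lymphotoxin-β, and the lymphotoxin heterotrimer signals through the lymphotoxin-β receptor to organise lymphoid tissue. Fas ligand kills cells that carry Fas, CD30 ligand (Tnfsf8) and LIGHT (Tnfsf14) act as costimulatory ligands, and RANKL (Tnfsf11) acts on dendritic cells and drives osteoclast formation. GM-CSF (Csf2) and IL-3 (Il3) act on myeloid cells, and LIF (Lif) is a cytokine of the IL-6 family. Messenger RNAs of this kind are often short-lived because AU-rich repeats after the stop codon recruit proteins that shorten the poly(A) tail.

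Levels are given as RPKM, which scales the reads of a gene by its transcript length and by the mapped reads of the library, so that levels of different genes can be set side by side. Mapped reads were estimated from the steps of the RPKM values of genes with a single transcript. The estimates were 17512385 to 33017133 in the time course and 18052931 to 25735543 with actinomycin. The 6 T cell markers in the table summed to 1706 and 1718 RPKM at rest and to between 1039 and 1215 RPKM in culture. Other cell types were most visible at rest, where 11 macrophage markers summed to 595 and 617 RPKM, 8 B cell markers to 72.6 and 82.6 RPKM and 5 NK cell markers to 55.2 and 56.2 RPKM. At 24 h these sums were 8.28 to 13.2 RPKM for macrophages, 10.1 to 19.2 RPKM for B cells and 19.8 to 30.7 RPKM for NK cells. Macrophages, B cells and NK cells also make some of these ligands, and their part in the levels was not tested. In bulk RNA, fewer cells of a type and less RNA per cell cannot be told apart.

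Tnf, Lta and Ltb lie side by side in the major histocompatibility region. In GENCODE M21 (GRCm38), Ltb occupies chr17:35194439-35196320 on the plus strand, Tnf chr17:35199381-35202007 and Lta chr17:35203165-35205351, both on the minus strand, with 3060 bases between Ltb and Tnf and 1157 bases between Tnf and Lta. Csf2 (chr11:54247271-54249667) and Il3 (chr11:54265303-54267277) are a second pair of neighbours, both on the minus strand and 15635 bases apart. The other members stand alone: Lif at chr11:4257557-4272514 (plus), Fasl at chr1:161780689-161788495 (minus), Tnfsf8 at chr4:63831308-63861347 (minus), Tnfsf11 at chr14:78277445-78308043 (minus) and Tnfsf14 at chr17:57189492-57194177 (minus). An antisense gene, Gm12223, overlaps Csf2, and without knowing whether strand was used in counting, reads of the 2 genes cannot be told apart. No stretch of 50 bases in a member's transcripts was found, read in the same direction, in a transcript of a gene outside the members. The reverse strand, and so antisense overlap, and sharing between members were not searched.

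The promoters of the 3 genes of the Tnf locus are shown because the levels of these neighbours moved apart after activation. The sequences are from RefSeq (GRCm38.p6), end at the last base before the transcript start, run 5′ to 3′ on the strand of the gene, and have the core of the NFAT motif, GGAAA or its reverse complement TTTCC, in capitals. They cover chr17:35202008-35202257 (Tnf, minus strand), chr17:35205352-35205601 (Lta, minus strand) and chr17:35194257-35194438 (Ltb, plus strand).
Tnf: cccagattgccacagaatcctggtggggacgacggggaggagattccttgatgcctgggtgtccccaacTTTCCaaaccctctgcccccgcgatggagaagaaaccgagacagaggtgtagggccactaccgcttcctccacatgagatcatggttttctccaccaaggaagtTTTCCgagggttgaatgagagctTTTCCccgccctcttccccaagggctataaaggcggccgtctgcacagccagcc
Lta: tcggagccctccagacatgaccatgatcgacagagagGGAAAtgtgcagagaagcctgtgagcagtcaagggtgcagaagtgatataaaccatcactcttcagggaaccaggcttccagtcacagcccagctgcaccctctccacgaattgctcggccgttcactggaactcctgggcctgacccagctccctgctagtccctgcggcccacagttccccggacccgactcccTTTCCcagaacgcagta
Ltb: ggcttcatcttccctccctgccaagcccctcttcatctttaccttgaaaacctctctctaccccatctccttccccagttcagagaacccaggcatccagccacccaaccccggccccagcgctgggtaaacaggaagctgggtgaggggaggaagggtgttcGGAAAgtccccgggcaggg
The Tnf promoter held 3 copies, the Lta promoter 2 and the Ltb promoter 1. All 10 members had GGAAA on either strand within 250 bases before the RefSeq start, as did 55.6% of 32851 RefSeq promoters.

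Other motifs were searched in the same windows. The AP-1 motif TGANTCA was present in 2 members, Lif and Tnfsf14, against 6.75% of all promoters. The NF-κB motif was also present in 2, Ltb and Lif, against 7.25%, and in Ltb it overlapped the NFAT core. A TATAAA box on the gene's own strand stood before Tnf and Lta and no other member in these windows, against 7.59% of all promoters. For Csf2 the window was chr11:54249900-54250149, because its RefSeq start lies upstream of its GENCODE start at 54249667. The bases between that window and the GENCODE start were not searched for any of the motifs.

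The AU-rich repeats are shown because repeats of this kind are known to shorten the life of a transcript, and levels after actinomycin are described further on. Whether the repeats and those levels are related was not tested. Each line is the 30-base stretch after the stop codon that holds the most copies of ATTTA, read from the GENCODE M21 transcript with ATTTA in capitals, at chr17:35199679-35199708 for Tnf (minus strand), chr11:54247329-54247358 for Csf2 (minus), chr11:4272414-4272443 for Lif (plus) and chr17:35203408-35203437 for Lta (minus).
Tnf: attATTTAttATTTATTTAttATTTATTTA
Csf2: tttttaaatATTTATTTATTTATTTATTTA
Lif: ATTTAttcaatgtcatATTTAaaatATTTA
Lta: tATTTAtggagagaaaagttaagttATTTA
Tnf and Csf2 each had 5 copies within 30 bases, a density reached by 0.271% of 21028 genes. Lif had 3, as many as 2.56% of genes, and Lta had 2, as many as 18.7%. Ltb had no ATTTA in the 174 bases after its stop codon. The nonamer TTATTTATT occurred after the stop codon of 4 members, Tnf, Csf2, Lif and Lta, against 7.66% of all genes. The annotated Il3 transcript ends 101 bases after its stop codon and held 1 ATTTA. Tnfsf8 had the most copies of the 10 genes, 10 over 2799 bases, with at most 2 in any 30 bases. Fasl and Tnfsf14 had 1 copy each, and Tnfsf11 had 6 with at most 1 in any 30 bases.

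In resting cells, Ltb stood far above the other members, at 300.2 and 313 RPKM in the 2 libraries, which made up 82.2% and 84.0% of the summed level of the 10 genes. Tnfsf8 was next, at 15.7 ± 1.01 RPKM (SD, n = 2), followed by Tnf at 13.1 ± 0.125 RPKM, Lta at 10.8 ± 0.128 RPKM and Tnfsf11 at 7.80 ± 0.584 RPKM. Tnfsf14 (6.54 ± 0.228 RPKM) and Fasl (6.40 ± 1.35 RPKM) were not separated, since both Tnfsf14 values fell between the Fasl values. The secreted cytokines were lowest. Lif had 1.64 and 0.857 RPKM, Csf2 had 0.696 and 0.637 RPKM from 11 and 12 reads, and Il3 had 0 and 0.270 RPKM from 0 and 4 reads. The 0 reads allowed up to 0.483 RPKM (3 pairs of reads), and the exact Poisson 95% interval of the other Il3 value was 0.0327 to 0.976 RPKM. Intervals count pairs of reads and cover counting error only. Pairs were used because more genes had 2 reads than 1 in each library. That the reads of a pair were counted singly is inferred from this.

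At the Tnf locus, the 3 neighbours took different courses. Tnf, the proinflammatory ligand, was at 55.7, 51.5, 131, 113, 108 and 74.9 RPKM in Th0 at 4, 8, 12, 16, 20 and 24 h. In Th1 it was at 96.2, 106, 118, 102, 101 and 102 RPKM, and in Th2 at 147, 101, 107, 68.3, 62.4 and 35.0 RPKM. Every culture was above both resting libraries, Th1 was nearly level from 4 to 24 h, and Th2 went from the highest of the 3 at 4 h to the lowest at 24 h.

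Lta, the gene of lymphotoxin-α, was at 20.9, 32.5, 83.8, 111, 134 and 135 RPKM in Th0 at the same hours. In Th1 the values were 29.3, 83.0, 119.9, 146, 179.8 and 224 RPKM, and in Th2 they were 34.3, 61.6, 58.5, 52.9, 44.9 and 40.9 RPKM. In Th0 and Th1 the 24 h value was the highest of the course, 6.48-fold and 7.64-fold above that at 4 h, while in Th2 the highest value was at 8 h.

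Ltb, which anchors lymphotoxin-α in the membrane, was at 272, 421, 352, 254, 194 and 196 RPKM in Th0, at 299.8, 427, 282, 327, 230.0 and 167 RPKM in Th1 and at 357, 248, 199, 139, 122 and 107 RPKM in Th2. Its 24 h level was 0.639, 0.544 and 0.348 of the resting mean in Th0, Th1 and Th2. From 20 h on, no culture reached the lower resting library.

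The ratio of Lta to Ltb within a library does not depend on sequencing depth. It was 0.0357 and 0.0348 at rest, 0.0768, 0.0979 and 0.0961 at 4 h in Th0, Th1 and Th2, and 0.690, 1.34 and 0.383 at 24 h. Lta thus passed Ltb in 1 library, Th1 at 24 h. The ratio of Tnf to Lta was 2.67, 3.28 and 4.29 at 4 h in Th0, Th1 and Th2 and 0.553, 0.455 and 0.855 at 24 h. Ltb was the highest of the 10 genes in all time-course libraries except Th1 at 24 h, where it was Lta, and Th2 at 24 h, where it was Tnfsf11.

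**Figure D1:**
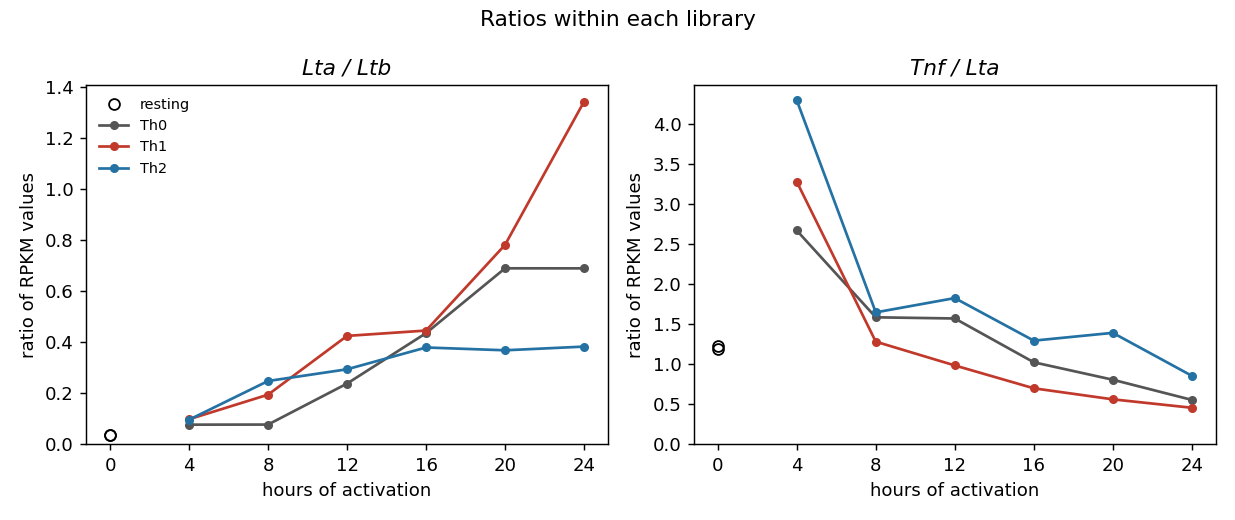
Ratios of RPKM values within each library (vertical axes) against hours of activation (horizontal axes), with Lta over Ltb on the left and Tnf over Lta on the right, open circles for the 2 resting libraries and 1 filled point per culture. Lta over Ltb ended at 1.34 in Th1 and 0.383 in Th2, and Tnf over Lta ranged from 2.67 to 4.29 at 4 h and from 0.455 to 0.855 at 24 h.

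The 3 secreted cytokines rose from low resting levels. Csf2, the gene of GM-CSF, was at 2.98, 4.09, 6.44, 6.71, 3.38 and 7.08 RPKM in Th0, at 6.38, 15.0, 12.1, 13.8, 9.53 and 5.29 RPKM in Th1 and at 17.1, 15.3, 7.85, 7.86, 7.01 and 9.28 RPKM in Th2. The Th2 value at 4 h came from 268 reads (95% interval 14.3 to 20.2 RPKM) and the Th0 value at 4 h from 58 reads (1.99 to 4.27 RPKM), so the gap between them exceeded counting error. Th2 was above Th0 at 6 of 6 time points, by 1.17-fold to 5.73-fold.

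Il3 was at 0.979, 2.32, 5.14, 4.70, 7.93 and 8.89 RPKM in Th0, at 2.21, 6.01, 7.22, 9.31, 9.32 and 11.0 RPKM in Th1 and at 2.27, 5.80, 5.36, 4.97, 6.08 and 9.01 RPKM in Th2. In each condition the lowest value was at 4 h and the highest at 24 h. Th1 was above Th0 at 6 of 6 time points.

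Lif was at 8.73, 6.84, 7.15, 8.09, 14.4 and 13.8 RPKM in Th0, at 11.4, 11.8, 10.9, 11.8, 15.7 and 18.5 RPKM in Th1 and at 15.6, 10.4, 4.98, 4.30, 6.56 and 7.89 RPKM in Th2. Th1 was above Th0 at 6 of 6 time points. Th2 was the highest condition at 4 h and the lowest from 12 h on.

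Among the membrane ligands, Fasl and Tnfsf14 had a peak at 8 or 12 h, as did Tnfsf8, of which the values follow. Fasl was at 8.02, 16.0, 25.6, 15.1, 12.0 and 10.0 RPKM in Th0, at 14.5, 24.2, 19.7, 14.4, 11.6 and 9.16 RPKM in Th1 and at 24.8, 37.9, 21.4, 12.6, 9.29 and 11.9 RPKM in Th2. Its 24 h level was 1.57, 1.43 and 1.86 times the resting mean. Tnfsf14, the gene of LIGHT, was at 5.72, 13.8, 35.5, 31.0, 21.4 and 17.9 RPKM in Th0, at 10.6, 29.8, 34.8, 25.5, 22.5 and 18.4 RPKM in Th1 and at 15.8, 38.6, 34.9, 25.8, 20.0 and 14.7 RPKM in Th2. At 12 h the 3 conditions averaged 35.1 ± 0.392 RPKM (SD, n = 3), and at 4 h the Th0 value was below both resting libraries.

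Tnfsf8, the gene of CD30 ligand, was at 59.3, 84.3, 94.9, 74.8, 60.5 and 42.9 RPKM in Th0, at 43.0, 85.4, 94.0, 65.3, 52.5 and 40.7 RPKM in Th1 and at 106, 183, 168, 116, 88.9 and 76.2 RPKM in Th2. Th2 was the highest condition at 6 of 6 time points, 1.47-fold to 2.18-fold above Th0 and 1.70-fold to 2.46-fold above Th1. Tnfsf11, the gene of RANKL, was at 13.8, 15.7, 29.8, 38.7, 44.5 and 58.8 RPKM in Th0, at 24.5, 36.6, 36.0, 37.5, 46.5 and 50.5 RPKM in Th1 and at 50.9, 40.4, 49.7, 62.7, 75.3 and 116 RPKM in Th2. Here too Th2 was the highest condition at 6 of 6 time points, and the 24 h value was the highest of the course in each condition.

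**Figure D2:**
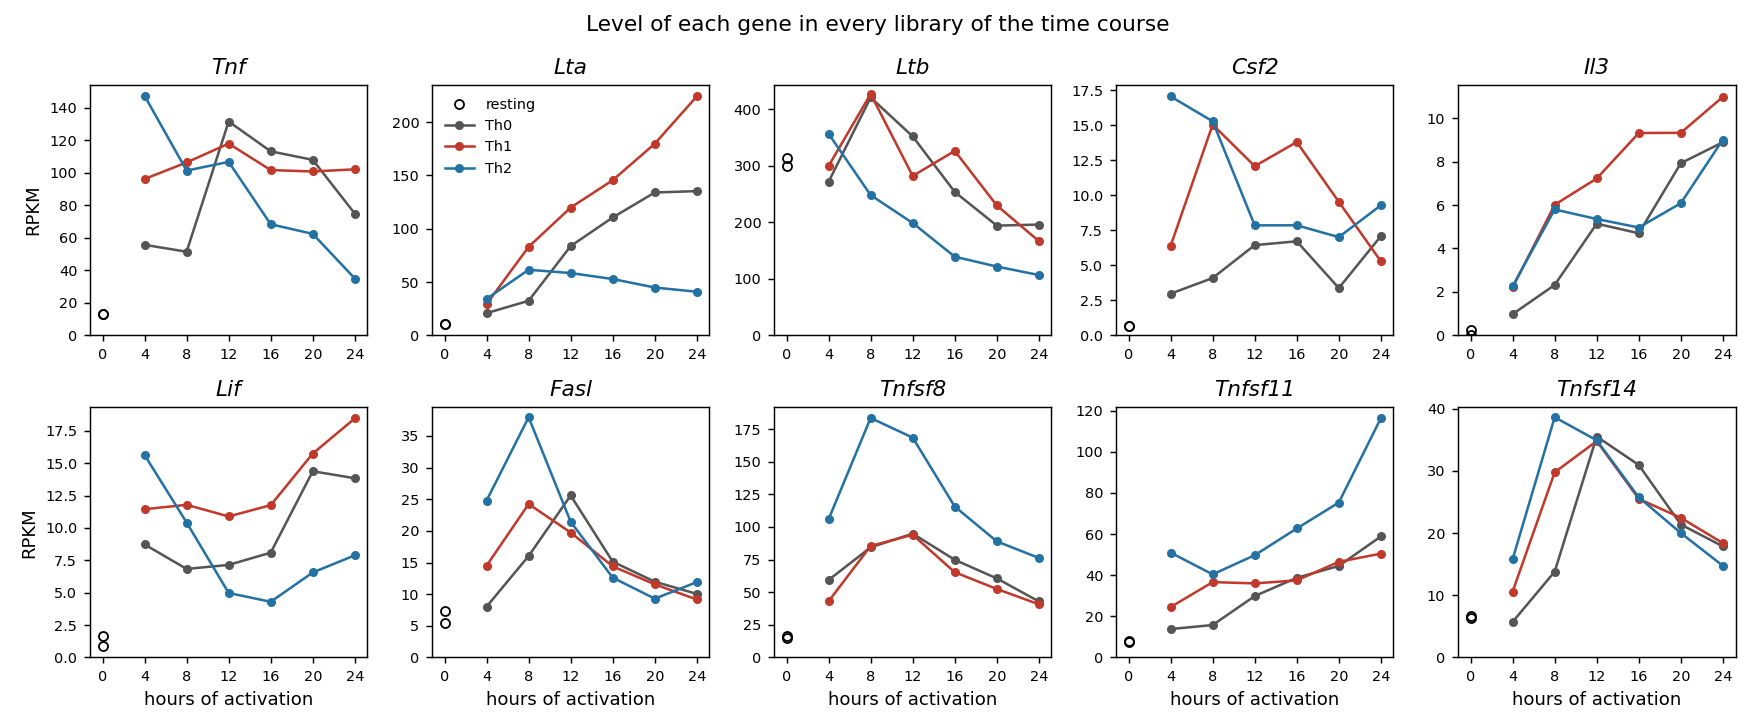
Level of each gene (RPKM, vertical axes starting at 0 and scaled for each gene) against hours of activation, with open circles for the 2 resting libraries at 0 h and 1 filled point for each culture in Th0, Th1 and Th2. Tnf, Csf2 and Lif in Th2 start highest at 4 h, and Lta is highest in Th1 from 8 h on. Fasl, Tnfsf8 and Tnfsf14 peak at 8 or 12 h, and Tnfsf8 and Tnfsf11 are highest in Th2 at every hour.

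Each time point was then tested against rest, with its 3 conditions as libraries, by limma on log2(RPKM + 0.5) across 10897 genes. Genes that changed 2-fold or more at an adjusted p below 0.05 were called. All 10 members passed the filter of a mean of 1 RPKM, Csf2 and Il3 only through the cultures, where they are high, so the counts below describe the members and carry no further weight. At 4 h, 7 of the 10 members were higher than at rest, where 2.61% of all genes tested were. They were Tnf, Csf2, Il3, Lif, Fasl, Tnfsf8 and Tnfsf11. Tnf was higher by 2.77 ± 0.43 (log2, SE; limma adjusted p = 0.000125), from 13.1 ± 0.125 RPKM (n = 2) to 99.7 ± 45.9 RPKM (n = 3). Lif was higher by 2.83 ± 0.45 (limma adjusted p = 0.000158), Csf2 by 2.68 ± 0.60 (limma adjusted p = 0.00253), Tnfsf8 by 2.01 ± 0.41 (limma adjusted p = 0.00133) and Il3 by 1.84 ± 0.37 (limma adjusted p = 0.00103), of which the size depends on the 0.5 added to a resting level near 0. Ltb differed by 0.00 ± 0.36 (limma adjusted p = 0.996), Lta by 1.31 ± 0.64 (limma adjusted p = 0.132) and Tnfsf14 by 0.56 ± 0.34 (limma adjusted p = 0.228), so none of these 3 was called.

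The calls of Fasl and Tnfsf11 at 4 h were lost under some alternatives. Fasl was higher by 1.11 ± 0.35 (limma adjusted p = 0.0212). Its difference was 1.31 without resting replicate 1 (adjusted p = 0.0528), 0.91 without the other resting library (adjusted p = 0.178) and 1.10 without the Th1 cultures (adjusted p = 0.132). It was under 2-fold without the Th2 cultures (0.73) and with condition as a further term (0.95), and with only the libraries compared in the fit the adjusted p was 0.0835. Tnfsf11 was higher by 1.67 ± 0.48 (limma adjusted p = 0.0140). Its difference stayed of that size when the first resting library (1.74, adjusted p = 0.0684), the second (1.60, adjusted p = 0.0922) or the Th1 cultures (1.71, adjusted p = 0.0787) were left out, while the adjusted p rose above 0.05. Lta passed the threshold without the Th2 cultures (log2 difference 1.16, limma adjusted p = 0.0328), with only the libraries compared (1.31, adjusted p = 0.00449) and with the condition term (1.28, adjusted p = 0.0438).

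At 8, 12 and 16 h, 9 members were higher than at rest, all but Ltb, where 6.42%, 10.7% and 11.2% of all genes were. At 20 h, 8 were higher (12.9% of all genes), with Fasl at 0.74 ± 0.35 (limma adjusted p = 0.0733) and Ltb at -0.80 ± 0.36 (limma adjusted p = 0.0600). At 24 h, 8 were higher (12.7% of all genes) and 1, Ltb, was lower (17.4% of all genes). The Ltb difference was -1.01 ± 0.36 (limma adjusted p = 0.0202). Its call was lost when the first resting replicate (-1.04, adjusted p = 0.0711), the second (-0.98, adjusted p = 0.0883) or the Th2 cultures (-0.76, under 2-fold) were left out, and also with median-of-ratios scaling (-0.87) and with condition as a further term (-0.82). On the log2(RPKM + 0.5) scale, the largest differences at 24 h were those of Il3 (4.02 ± 0.37), Lta (3.26 ± 0.64) and Tnfsf11 (3.09 ± 0.48). Their limma adjusted p was 1.27e-07, 0.000331 and 3.86e-05. The 0.5 added shrinks the differences of genes with low resting levels. The place of Lta and Tnfsf11 above Lif (2.95 ± 0.45) and Csf2 (2.69 ± 0.60) therefore depends on it. The call of Tnfsf11 at 8 h was lost without the Th1 cultures (log2 difference 1.64, limma adjusted p = 0.0622), and that of Fasl at 16 h (1.09 ± 0.35) was lost without resting replicate 2 (0.89), without the Th1 cultures (1.07, adjusted p = 0.0819), with upper-quartile scaling (0.97) and with the condition term (0.92), and was just under 2-fold without the haemoglobin genes. With quantile normalization Fasl was called at 20 and 24 h as well (1.10 and 1.06).

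The median difference of the 10 members from rest was between 1.76 at 4 h and 2.61 at 20 h on the log2 scale, beside a median between -0.07 and -0.01 over all genes. The markers of macrophages, B cells and NK cells fell over the same hours, as given above, and their part in these differences was not tested.

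Between 4 and 24 h, 4 members were called, where 26.2% of all genes were, 13.0% higher and 13.2% lower. Il3 was higher at 24 h by 2.18 ± 0.33 (limma adjusted p = 2.77e-05), Lta by 1.94 ± 0.57 (limma adjusted p = 0.00700) and Tnfsf11 by 1.42 ± 0.43 (limma adjusted p = 0.00825), and Ltb was lower, at -1.02 ± 0.32 (limma adjusted p = 0.0103). Tnf differed by -0.52 ± 0.38 (limma adjusted p = 0.246) and Tnfsf14 by 0.74 ± 0.31, which is under 2-fold (limma adjusted p = 0.0410). The call of Lta was lost without the Th0 cultures (1.58, adjusted p = 0.111) or the Th1 cultures (1.46, adjusted p = 0.0751), and that of Ltb without the Th2 cultures (-0.66) or with median-of-ratios scaling (-0.95). Without the Th2 cultures, Tnfsf14 was called (1.16, limma adjusted p = 0.00590) and the Tnf difference was 0.26.

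The conditions were compared over the 6 time points, with time as a block, across 10737 genes. Tnfsf11 was higher in Th2 than in Th0 by 1.05 ± 0.16 (limma adjusted p = 0.000224) and was the 1 member called, where 2.01% of all genes were called and 0.186% were higher. 3 further members passed the adjusted p but not 2-fold. Tnfsf8 differed by 0.79 ± 0.08 (limma adjusted p = 4.45e-06), Csf2 by 0.99 ± 0.27 (limma adjusted p = 0.0147) and Ltb by -0.60 ± 0.15 (limma adjusted p = 0.00846), with Ltb below Th0 at 5 of 6 time points. Tnfsf11 was at 0.90 without the 4 h time point and at 1.00, just under 2-fold, without the 8 h time point. With only 12 to 24 h, Tnfsf11 was under 2-fold (0.79) and Lta was the 1 member called (-1.21, limma adjusted p = 0.000329). Csf2 was past 2-fold without the 12, 16 or 24 h time point (1.13, 1.14 and 1.11). Without the time term the Tnfsf11 difference had an adjusted p of 0.163.

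Between Th2 and Th1, Lta was the 1 member called, where 1.96% of all genes were called and 1.39% were lower, and it was lower in Th2 (-1.19 ± 0.29, limma adjusted p = 0.0134). Its call was lost without the 16, 20 or 24 h time point (-1.13, -1.03 and -0.94, with adjusted p of 0.0588, 0.0623 and 0.0556), and without the time term (adjusted p = 0.462). With only 12 to 24 h it was -1.73, and Lif was called too (-1.20, limma adjusted p = 2.21e-06). Tnfsf8 was higher in Th2 by 0.95 ± 0.08 (limma adjusted p = 6.88e-07) and Tnfsf11 by 0.71 ± 0.16 (limma adjusted p = 0.00730), and Ltb (-0.64 ± 0.15, limma adjusted p = 0.00969) and Lif (-0.75 ± 0.21, limma adjusted p = 0.0284) were lower, all of them under 2-fold.

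Between Th1 and Th0, 0 members were called by limma, where 0.494% of all genes were. Il3 passed the adjusted p under 2-fold, higher in Th1 by 0.66 ± 0.16 (limma adjusted p = 0.0417). Csf2 differed by 0.93 ± 0.27 (limma adjusted p = 0.104), with 1.19 (adjusted p = 0.0331) without the 24 h time point, and Lta by 0.65 ± 0.29 (limma adjusted p = 0.288).

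The order of the conditions was not the same at each hour. At 4 h, Th2 was the highest condition for 10 of 10 members, where it was the highest for 37.3% of all genes, and Th0 was the lowest for 9 members, against 27.4% of all genes. This count was taken after the values were seen and rests on 1 library of each condition. The Th2 culture at 4 h also had the highest summed markers of red blood cells (23772 RPKM, against 17864 in Th0 and 15475 in Th1), macrophages (83.0, against 62.1 and 50.9 RPKM), B cells (59.5, against 47.7 and 38.7 RPKM) and NK cells (44.8, against 34.3 and 39.1 RPKM), and their part in this order was not tested. At 24 h, Th2 was the highest for 4 members and the lowest for 5, against 31.7% and 52.1% of all genes.

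Whether a difference between conditions changed from 4 to 24 h was tested as a slope in log2 per h. Against Th0, the Th2 difference fell with time for 4 members, where 4.05% of all genes fell and 5.15% were called in either direction. The slopes were -0.143 ± 0.0161 for Lta (limma adjusted p = 0.000663), -0.129 ± 0.0186 for Tnf (limma adjusted p = 0.00280), -0.0943 ± 0.0182 for Lif (limma adjusted p = 0.0119) and -0.0941 ± 0.0184 for Tnfsf14 (limma adjusted p = 0.0123). For Tnf, the ratio of Th2 to Th0 was 2.65 at 4 h and 0.467 at 24 h. For Lta it was 1.64 at 4 h and 0.303 at 24 h. Without the 20 h time point the slopes were as large for Lif (-0.0879, adjusted p = 0.0726) and Tnfsf14 (-0.0973, adjusted p = 0.0636), but neither was called. With only 12 to 24 h, the Lta slope kept its call (-0.103, limma adjusted p = 0.0133), whereas the slopes were -0.0606 for Tnf (adjusted p = 0.0908), -0.0278 for Lif (adjusted p = 0.451) and -0.0141 for Tnfsf14 (adjusted p = 0.623).

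Against Th1, the Th2 difference fell for Lta (-0.132 ± 0.0161, limma adjusted p = 0.00139), Tnf (-0.0929 ± 0.0186, limma adjusted p = 0.0285) and Lif (-0.0818 ± 0.0182, limma adjusted p = 0.0468), where 1.09% of all genes were called and 0.810% fell. Lta kept its call without any 1 time point. The Tnf slope was -0.0867, -0.0930, -0.101 and -0.0775 without the 4, 16, 20 or 24 h time point, with adjusted p of 0.0607, 0.0575, 0.104 and 0.212. It also lost its call with no filter or no trend (adjusted p = 0.0904 and 0.0518) and kept it with only 12 to 24 h (-0.107, limma adjusted p = 0.0173). The Lif call was lost in 12 of 16 alternatives, which included every scaling tried, a pseudocount of 0.1, no filter and no trend (adjusted p from 0.0501 to 0.114). Its slope was -0.0540 without the 4 h time point (adjusted p = 0.131) and -0.00531 with only 12 to 24 h (adjusted p = 0.899). Between Th1 and Th0, 0 members were called by limma (0.0279% of all genes). The largest slope was that of Tnfsf11 (-0.0630 ± 0.0176, limma adjusted p = 0.293).

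**Figure D3:**
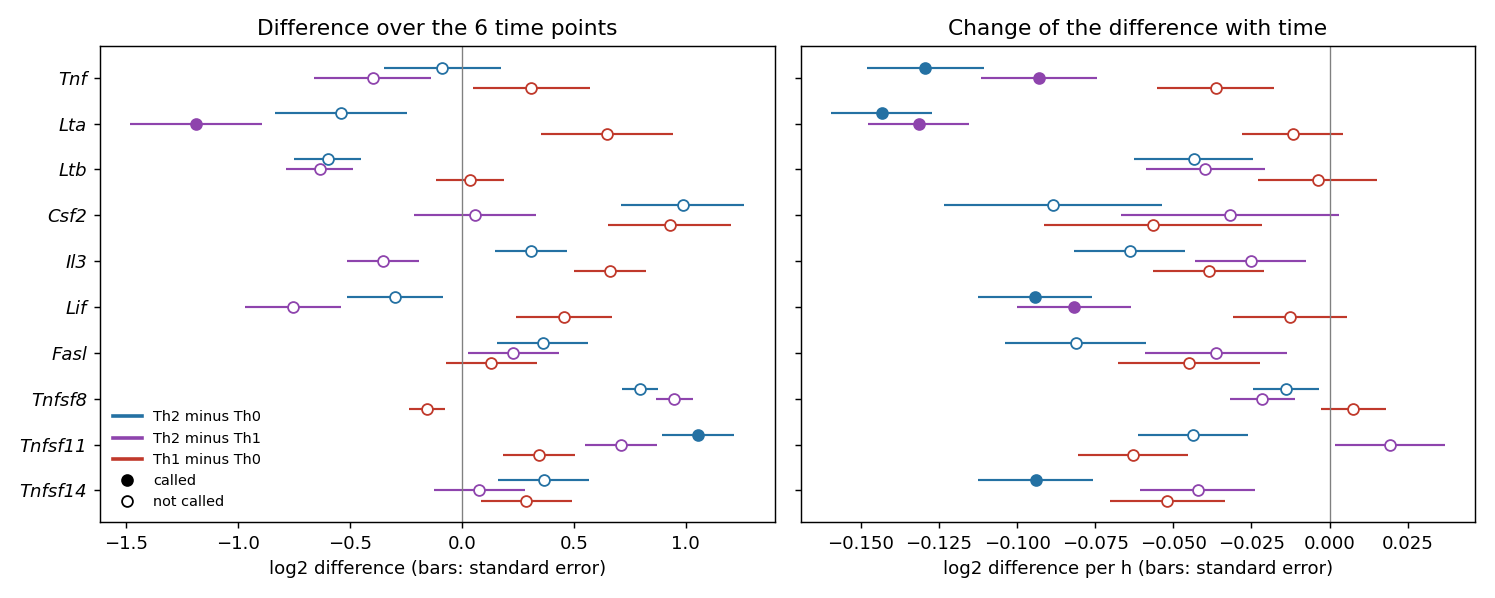
Log2 differences between conditions over the 6 time points (left) and their change per h (right) for the 10 genes, with horizontal bars for the standard error and filled points for called values. Tnfsf11 (Th2 above Th0, 1.05) and Lta (Th2 below Th1, -1.19) are the filled points on the left, and Lta and Tnf have the lowest slopes on the right (-0.143 and -0.129 per h for Th2 minus Th0).

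Several partner genes were followed as lists, which like the members were chosen with results of these data known. For all the list counts that follow, 2.61% of all genes were higher and 7.97% lower than at rest at 4 h, and 12.7% were higher and 17.4% lower at 24 h. Some listed genes, among them Tnfrsf8, Tnfsf4 and Il13, were below 1 RPKM in both resting libraries. They passed the filter only through the cultures, where they are high, so these counts describe the lists and carry no further weight. Of 14 receptors of the members, 10 were tested, and at 24 h 1 was higher and 4 lower than at rest, with a median of -0.89 on the log2 scale beside -0.04 over all genes. Tnfrsf14, the receptor of LIGHT, was at 47.9 and 46.7 RPKM at rest and at 19.5, 15.0 and 12.5 RPKM at 24 h in Th0, Th1 and Th2 (log2 difference -1.58 ± 0.28, limma adjusted p = 0.000114). The other 3 that were lower, Il3ra (-1.64), Csf2ra (-1.50) and Csf2rb (-1.02), are chains of the IL-3 and GM-CSF receptors, and Tnfrsf8, the receptor of CD30 ligand, was higher (1.45 ± 0.33, limma adjusted p = 0.00117). Myeloid cells express the IL-3 and GM-CSF receptor chains too, and the macrophage markers fell, to between 50.9 and 83.0 RPKM at 4 h. At 4 h, Csf2ra (-1.40) and Il3ra (-1.25) were already lower than at rest. Csf2rb was then higher, but under 2-fold (0.68 ± 0.14, limma adjusted p = 0.00156). The part of other cells in these differences was not tested.

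Of 14 NF-κB targets of TNF signalling, 7 were higher and 1 lower at 4 h. At 24 h, 2 were higher and 1 lower, shares near or below those of all genes. Nfkb2, which encodes an NF-κB subunit, was higher by 1.97 ± 0.14 at 4 h (limma adjusted p = 2.66e-08) and by 2.20 ± 0.14 at 24 h (limma adjusted p = 1.16e-09). The one lower at both hours was Tnfaip3, which encodes the NF-κB inhibitor A20, at -1.09 and -2.99. Of 11 RNA-binding regulators of AU-rich transcripts, 2 were lower at 4 h and at 24 h, Zfp36 (-1.71 and -3.40) and Zfp36l2 (-1.35 and -2.30), both of which promote decay of such transcripts. At 24 h, 2 of 11 is near the share of all genes that were lower.

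Of 11 other TNF superfamily ligands, 4 passed the filter and were tested. Tnfsf4, the gene of OX40 ligand, was higher at 4 h (1.63 ± 0.35, limma adjusted p = 0.00178) and at 24 h (2.06 ± 0.35, limma adjusted p = 7.57e-05). Tnfsf9 was higher at 24 h (1.19). Tnfsf10 was lower at 4 h, but under 2-fold (-0.97 ± 0.20, limma adjusted p = 0.00114). The ligands left out included Tnfsf12 and Tnfsf13, lower in every 24 h culture than at rest, and Cd70, which was higher. Of 12 other helper cytokines tested, 4 were higher at 4 h and 5 at 24 h, with Il2 at 3.27 and 6.19 and Il13 at 3.25 and 3.56. Of 7 genes for shedding and cleavage of membrane ligands, 2 were higher (Rhbdf1 and Furin) and 1 lower (Sppl2b) at 24 h.

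Between Th1 and Th0, 2 of 13 other helper cytokines tested and 1 of 7 cleavage genes were called, where 0.494% of all genes were. Between Th2 and Th1, 1 gene each of these 2 lists and 1 of 14 NF-κB targets were called, where 1.96% of all genes were. No listed gene was called between Th2 and Th0, where 2.01% of all genes were. Ifng was higher in Th1 than in Th0 by 3.15 ± 0.26 (limma adjusted p = 8.68e-06), Il21 by 1.37 ± 0.15 (limma adjusted p = 7.71e-05) and Furin by 1.05 ± 0.12 (limma adjusted p = 8.40e-05). In Th2, Ifng (-2.49), Icam1 (-1.16) and Furin (-1.10) were lower than in Th1.

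For each member, the genes with the most similar course over the 20 time-course libraries were found by the correlation of log2(RPKM + 0.5). The points share libraries and the step from rest to culture. The most similar gene was Nr4a3 for Tnf (Pearson r = 0.943), Ccl20 for Lta (0.957), Ifih1 for Ltb (0.956), Il13 for Csf2 (0.930), Ppa1 for Il3 (0.974) and Icos for Lif (0.897). It was Rheb for Fasl (0.958), Gfi1 for Tnfsf8 (0.949), Gm10184 for Tnfsf11 (0.958) and Rgs16 for Tnfsf14 (0.971). Among the members themselves, Lta and Il3 were the most similar pair (0.900) and Ltb and Tnfsf11 the least (-0.654). The neighbours next in likeness were Sema7a and Nfkbid for Tnf, Ccl4 and Tpm3 for Lta, Ifit1 and Rtp4 for Ltb, and Il2ra and Il2 for Il3.

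After actinomycin, 9 of 10 members had a negative slope, and 4 were called, where 12.0% of all genes fell and 20.9% were called in either direction. No fold limit was set for slopes. RPKM is relative to all mapped reads, so a slope is relative to the other transcripts, of which the median slope was 0.00 per h. With 1 library per time, an exact two-sided permutation of the 4 hours cannot give a p below 0.0417.

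The called members were Csf2, Fasl, Tnfsf11 and Tnf. Fasl was at 13.2, 11.6, 6.70 and 5.32 RPKM at 0, 1, 2 and 4 h, a slope of -0.33 ± 0.07 per h (limma adjusted p = 0.000194, exact permutation p = 0.0417), and kept its call without any 1 library. Tnfsf11 was at 30.7, 23.2, 23.4 and 14.0 RPKM (-0.26 ± 0.06, limma adjusted p = 0.000504, exact permutation p = 0.0833). It was not called without the 0 h library (-0.25, adjusted p = 0.102) or without the 4 h library (-0.19, adjusted p = 0.412). Fasl and Tnfsf11 ended at 0.402 and 0.455 of their 0 h values.

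Tnf and Csf2 were lowest at 2 h and not at 4 h, as were Lta, Il3, Lif and Tnfsf14. The share of all genes lowest at 2 h was not computed, and each time has 1 library. A trait of these genes thus cannot be told apart from one of the 2 h library. Tnf was at 31.4, 20.5, 8.74 and 15.5 RPKM (slope -0.25 ± 0.07, limma adjusted p = 0.00304, exact permutation p = 0.375), and without the 0 h library its slope was -0.05 (adjusted p = 0.837). Its call was also lost with no filter, quantile normalization or no trend (adjusted p = 0.294, 0.146 and 0.127). Csf2 was at 4.13, 4.40, 0.800 and 1.66 RPKM from 85, 74, 12 and 24 reads (slope -0.34 ± 0.10, limma adjusted p = 0.00510, exact permutation p = 0.458). Its slope was -0.28 without the 0 h library (adjusted p = 0.207) and -0.27 without the 1 h library (adjusted p = 0.0952), and the call was lost with no filter, quantile normalization or no trend as well (adjusted p = 0.266, 0.0951 and 0.0693).

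Lta, the neighbour of Tnf, was at 39.2, 45.7, 37.2 and 43.7 RPKM (slope 0.02 ± 0.06, limma adjusted p = 0.860), while Ltb went from 173 over 168 and 154 to 119 RPKM (-0.14 ± 0.06, limma adjusted p = 0.0625, exact permutation p = 0.0417) and was called without the 2 h library (-0.14, adjusted p = 0.00700). The ratio of Tnf to Lta within a library was 0.801, 0.448, 0.235 and 0.356. Tnfsf8 was at 89.9, 72.4, 71.4 and 67.6 RPKM (-0.09 ± 0.06, limma adjusted p = 0.263) and Tnfsf14 at 6.67, 6.93, 3.62 and 5.21 RPKM (-0.11 ± 0.08, limma adjusted p = 0.333).

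The remaining 2 cytokines were not called. Lif was at 5.20, 3.60, 2.13 and 3.01 RPKM (slope -0.17 ± 0.09, limma adjusted p = 0.154) and passed the threshold without the 4 h library (-0.56, adjusted p = 0.0302). Il3 was at 2.47, 9.0, 1.27 and 2.11 RPKM from 40, 119, 15 and 24 reads (-0.21 ± 0.10, limma adjusted p = 0.107), so that its 1 h library stood 3.64-fold above 0 h, with 95% intervals of 6.86 to 11.6 and 1.51 to 3.82 RPKM that do not overlap, and it was called without the 0 h library (-0.49, adjusted p = 0.00411). Over all genes, 12.0% fell. Of the lists, 6 of 10 other helper cytokines tested fell, with Osm at -0.56 and Ifng at -0.32 per h. So did 2 of 5 other TNF superfamily ligands, Tnfsf4 (-0.32) and Cd40lg (-0.34), and 4 of 11 RNA-binding regulators, of which 1 rose. Of 14 NF-κB targets, 2 fell, Nfkbia (-0.60) and Tnfaip3 (-0.50), and 1 rose. Of 10 receptors, 1 fell and 1 rose, and the same held for 7 cleavage genes. In these last 3 lists the share that fell was near that of all genes.

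The 0 h actinomycin library had been stimulated for 16 h, so its levels stand beside those of the 16 h cultures. Tnf (31.4 RPKM), Lta (39.2), Csf2 (4.13), Il3 (2.47), Tnfsf11 (30.7) and Tnfsf14 (6.67) were below all 3 of them, with Tnfsf14 at 0.261 of the lowest. Ltb, Lif, Fasl and Tnfsf8 were within their range. The actinomycin libraries also differed from the 16 h cultures in markers, with NK cell markers at 7.49 to 10.8 RPKM (24.8 to 26.4 RPKM in the 16 h cultures). Of the 11 macrophage markers, Lyz2 was at 21.5 to 60.0 RPKM (4.03 to 15.5 RPKM in the cultures) and Cd68 at 3.82 to 30.5 RPKM (2.57 to 5.27 RPKM), while the other 9 together were at 5.98 to 10.2 RPKM, beside 5.02 to 9.11 RPKM in the cultures. The part of these markers in the levels was not tested.

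**Figure D4:**
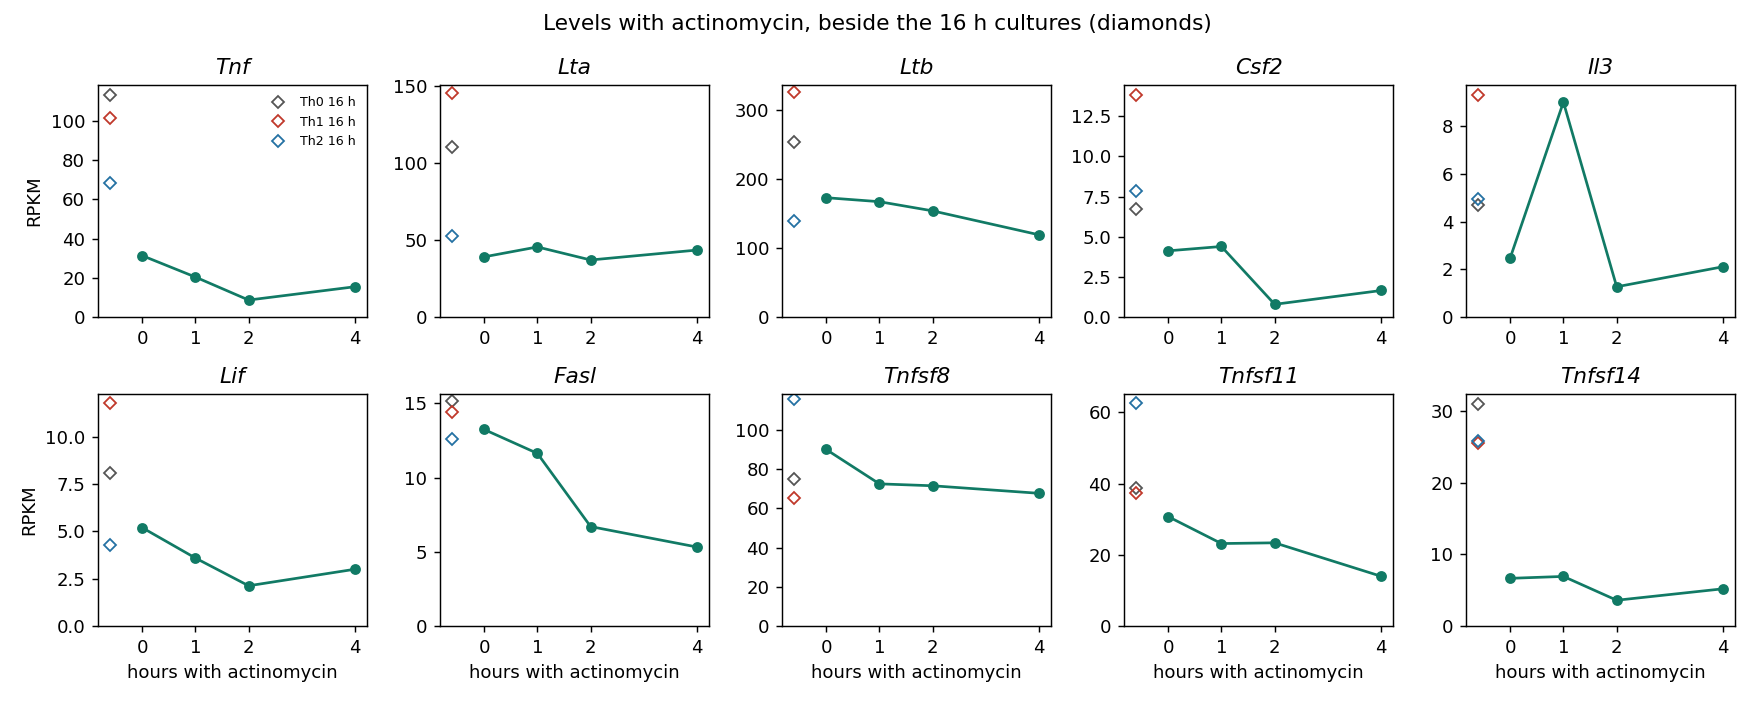
Level of each gene (RPKM, vertical axes from 0) at 0, 1, 2 and 4 h with actinomycin after 16 h of stimulation (filled points, 1 library each), beside the 16 h cultures of the time course (diamonds at the left). Fasl goes down at each step from 13.2 to 5.32 RPKM, Lta stays between 37.2 and 45.7 RPKM, Il3 has a single high value of 9.0 RPKM at 1 h, and Tnf, Csf2, Lif and Tnfsf14 are lowest at 2 h.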

How the data were processed

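RNA was sequenced on the Illumina NextSeq 500. The authors deposited 1 table of RPKM values (reads scaled by transcript length and by mapped reads) for 22010 rows, of which 1 has no gene name and was left out. The submitters' processing notes name BWA and GRCm38; the counter and annotation are not given in the sources used here. The members and gene lists were chosen with earlier results of these data known. Groups came from the labels. The labels describe magnetically purified CD4+ cells, whereas the study's methods name naive cells.

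Reads were recovered from the steps of the values for 7 of the 10 members (not Tnf, Ltb and Lif), within 0.02 of a whole read. More genes had 2 reads than 1 in each library, so intervals (exact Poisson, 95%) were computed on pairs. Tests used limma 3.58.1 (R 4.3.3) with its intensity trend, applied to log2(RPKM + 0.5) of genes whose mean was 1 RPKM or more, and p-values were adjusted over all of them by Benjamini and Hochberg. The scripts were tested on simulated data. Named genes were the members, the 3 genes most like each and, per list, up to 4 called genes with the largest changes. Alternatives were other pseudocounts, filters and scalings, no trend, a condition or no time term, and leaving out libraries or time points. Leaving out the haemoglobin genes and setting slopes against the median slope were added after the data were seen. Positions and transcripts are from GENCODE M21 and promoters from RefSeq (GRCm38.p6). Python 3.11.15, numpy 2.4.6, pandas 2.3.3, scipy 1.17.1 and matplotlib 3.10.9 were used.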

Additional observations from a re-analysis of the deposited data

Results flagged for a closer look

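7 results were singled out because the difference between 2 conditions itself changed with time, by limma's test of the condition by hour term. Against Th0, the Th2 difference changed by -0.143 per h (log2) for Lta (limma adjusted p = 0.000663), -0.129 for Tnf (limma adjusted p = 0.00280), -0.0943 for Lif (limma adjusted p = 0.0119) and -0.0941 for Tnfsf14 (limma adjusted p = 0.0123). Against Th1, it changed by -0.132 per h for Lta (limma adjusted p = 0.00139), -0.0929 for Tnf (limma adjusted p = 0.0285) and -0.0818 for Lif (limma adjusted p = 0.0468). Both comparisons use the same Th2 cultures. In these cultures Tnf went from 147 to 35.0 RPKM between 4 and 24 h and Lta from 34.3 to 40.9 RPKM, while Lta reached 135 RPKM in Th0 and 224 RPKM in Th1. The Th2 culture at 4 h had more red blood cell, macrophage and B cell markers than the other 4 h cultures, and the part of this in the slopes was not tested. Without the 4 h time point, 5 of the 7 slopes kept their calls, those of Lta against both conditions and those of Tnf, Lif and Tnfsf14 against Th0. Against Th1, the Tnf slope was then -0.0867 (adjusted p = 0.0607) and the Lif slope -0.0540 (adjusted p = 0.131).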

How the results depend on the processing

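No analysis paired by replicate was possible because each culture was sequenced once. Cultures of the same hour were matched by the time term instead, and the counts without it are given below. Over all 154 member results and counts, 2450 alternatives were computed. Of these, 2277 kept direction and side of the threshold, or a count at or near its main value. Another 66 lost a call, 26 gained one, 27 moved a count further and 54 changed sign, 0 of them for a called value. The 2277 thus include small shifts of a count, such as 2 members instead of 3 for Th2 against Th1 per h with only 12 to 24 h. Among the differences given above, Ltb at 4 h against rest changed sign with upper-quartile scaling (-0.00997) and without the haemoglobin genes (-0.00371), and lay between -0.103 and 0.0927 when a library or condition was left out. Left out in the same way, the Tnf difference between 24 and 4 h lay between -0.986 and 0.255 and the Lta slope after actinomycin between -0.0378 and 0.0382. The number of members called between Th2 and Th0 (1) was 2 with a pseudocount of 0.1, median-of-ratios scaling or quantile normalization, 0 without the time term, and 0 to 2 when a time point was left out. Between Th2 and Th1 (1) it was 2 with only 12 to 24 h, 0 without the time term, and 0 to 1 when a time point was left out, and between Th1 and Th0 (0) it was 0 to 1. For the change per h, the count against Th0 (4) was 1 with only 12 to 24 h and 2 to 5 when a time point was left out. Against Th1 (3) it was 1 with no filter or no trend and 1 to 3 when a time point was left out. After actinomycin (4) it was 2 with no filter, quantile normalization or no trend, and 2 to 5 when a library was left out. Quantile normalization moved the median of all genes at 24 h against rest from -0.04 to 0.13 and the share of higher among all calls from 42.3% to 53.4%. The cause of these changes was not tested.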
